A study of Saccharomyces cerevisiae with 42 samples.

Results

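In Saccharomyces cerevisiae, 68 nuclear genes with a short intron that encode no cytosolic ribosomal protein (RP) were followed over a growth time course. RP genes were told by the symbols RPL, RPS and RPP, so proteins of the mitochondrial ribosome, such as YML6, do not count as RP here. They were chosen by the difference between gene length and exon length, which had to be at least 25 bp and no longer than a limit that fell just above PAL2 and TAD3 (124 bp) and just below SRC1 (126 bp), by at least 75 gene counts in every library and by systematic names that start with Y. A further 21 genes that met these limits, with roles in the cytoskeleton, ubiquitin pathway, vesicle traffic, RNA splicing and the respiratory chain among others, were left out by name. The 68 genes stood among 7127 genes in the counts and 4789 genes that reached the minimum in every library. Of 118 short-intron genes without RP function, 29 did not reach the minimum and 89 did, while 0 RP genes had an intron this short. On the count limit, PCC1 (lowest count 75), YCL012C (79) and CGI121 (87) lay just inside, and DCN1 (73), SCS22 (58) and CMC2 (56) just outside. The next intron outside the length limit after SRC1 was that of LSM2 (128 bp). The shortest introns inside were those of YJR112W-A (49 bp) and TAN1 (58 bp), and below the limit OAZ1 and EST3 had a gap of 1 bp. The 29 genes that were lost include the meiotic genes DMC1, MEI4, MND1, REC102, REC114, SAE3, SPO22 and PCH2.

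The RNA came from BY4742, a haploid wild-type laboratory strain, grown from single colonies in YPD, a rich glucose medium. The labels give 30 °C and no other treatment for every group, though some count headers at 0 h name others, as given below. Cultures were sampled 2 h after dilution into fresh medium, called 0 h, in 24 libraries, and at 2, 4 and 6 h in 6 libraries each, up to late exponential growth. The study used the course to ask how transcript levels and splicing of intron-containing genes move as exponential growth ends. The genotype in the paper carries mutations in HIS3, LEU2, MET15 and URA3. URA3 had 0 to 1 counts in each library and LEU2 had 0, whereas HIS3 had 153 to 4693 and MET17, another name of MET15, 902 to 9494. LYS2, which that genotype does not list, had 0 to 1 counts. The cause was not tested. Libraries held 4339150 to 31908031 gene counts (median 12150379). In the count headers, 18 of the 24 libraries at 0 h carry another treatment in the alignment name (35C, 10C or Na200), and all 24 were kept as 0 h, as labelled. The other 6 carry 30C in that name and are called the matching libraries below. By the slope of log2 counts on log2 gene length over intronless genes, 10 libraries stood apart with flat slopes (−0.079 to 0.192, against 0.38 to 0.621 in the other 32). Those 10 were 7 libraries from 0 h, 1 from 2 h, 0 from 4 h and 2 from 6 h, so values are also given with this set as a term or within the sets. Levels are gene counts scaled to the average library of 13900104 counts.

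Introns are removed by the spliceosome, in which U1 pairs with the 5′ splice site, usually GTATGT in this yeast, and U2 with the branch site, usually TACTAAC, before the cut at the 3′ splice site, which usually ends in AG. Most yeast genes have no intron, RP genes carry long ones, and short introns occur in genes of many functions. A transcript that keeps its intron mostly meets an early stop codon and is prone to decay, and some introns are spliced chiefly under one condition, as that of REC107, which needs the meiotic factor Mer1.

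The introns were read on the R64-1-1 genome from the RefSeq sequence, on which all 68 genes have the start and end given in the counts. TAD3 has 2 annotated introns, and the single introns of the other 67 genes were examined. They had a median length of 86 bp, against 403 bp in RP genes. The distance from the intron start to TACTAAC ran from 36 to 83 bases in the 47 introns that hold it, against up to 525 in RP genes, and the distance from TACTAAC to the intron end had a median of 25 bases against 37. GTATGT opened 54 of the 67 introns (80.6%), against 186 of all 259 single introns (71.8%). TACTAAC was found on the sense strand, the one searched, in 47 of 67 (70.1%), against 214 of 259 (82.6%) in all single introns and 81 of 85 (95.3%) in RP genes. The shorter ACTAAC, which lies within TACTAAC, was found in 59 of 67 (88.1%), and BET4, ERV1, HPC2, MOB1, MRX20, RCF3, YJR112W-A and YKR005C lacked it. Of the other starts, GTAAGT occurred in ATG38, ATG44, MRX20, PCC1 and RRT8, GTACGT in ARP9, YDL012C and YML6, GTATGC in GIM4, HNT2, YCL002C and YNL050C, and GTTCGT in REC107. GTTCGT opened 2 of the 259 introns. The last 3 bases were TAG in 32 introns, CAG in 30 and AAG in 4, and YJR112W-A was annotated with AGG. The kept intron of PTC7 would hold the reading frame without a stop, and it was the only one of the 259 to do so.

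The 6 introns with the most intron reads per base relative to their exons at 0 h are printed first. They are those of YKR005C (chrXI:449952-450020, minus strand), REC107 (chrX:469184-469263, minus strand), MRX20 (chrVI:242010-242081, plus strand), PTC7 (chrVIII:251156-251248, plus strand), TFC3 (chrI:151007-151096, minus strand) and YBR062C (chrII:366503-366584, minus strand). Each is given 5′ to 3′ on the sense strand, with the first 6 bases, TACTAAC where found and the last 3 bases in capitals.
YKR005C: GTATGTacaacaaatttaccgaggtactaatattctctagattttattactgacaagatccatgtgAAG
REC107: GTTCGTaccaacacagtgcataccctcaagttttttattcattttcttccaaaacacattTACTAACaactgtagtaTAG
MRX20: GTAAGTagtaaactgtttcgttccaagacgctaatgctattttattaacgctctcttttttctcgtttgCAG
PTC7: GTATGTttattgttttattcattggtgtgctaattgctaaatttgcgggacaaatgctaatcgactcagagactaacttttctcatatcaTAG
TFC3: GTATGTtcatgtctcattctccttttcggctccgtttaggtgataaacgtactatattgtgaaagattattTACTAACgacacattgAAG
YBR062C: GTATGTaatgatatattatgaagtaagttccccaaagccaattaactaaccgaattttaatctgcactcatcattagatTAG

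For contrast, 3 introns with few intron reads are those of RIM1 (chrIII:173116-173198, minus strand), DID4 (chrXI:437838-437905, plus strand) and PMI40 (chrV:158995-159087, minus strand). CNB1 (chrXI:82999-83074, plus strand) is the gene whose splice ratio passed the test at 6 h, and YJR112W-A (chrX:637810-637858, plus strand) has the shortest intron. Capitals mark the same elements.
RIM1: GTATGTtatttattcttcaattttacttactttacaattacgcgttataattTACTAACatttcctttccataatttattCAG
DID4: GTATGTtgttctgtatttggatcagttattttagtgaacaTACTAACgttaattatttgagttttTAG
PMI40: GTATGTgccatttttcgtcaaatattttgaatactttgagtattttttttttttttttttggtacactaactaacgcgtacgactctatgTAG
CNB1: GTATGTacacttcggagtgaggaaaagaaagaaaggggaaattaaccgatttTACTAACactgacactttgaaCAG
YJR112W-A: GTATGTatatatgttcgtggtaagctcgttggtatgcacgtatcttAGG

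REC107 and CNB1 hold an exact TACTAAC, whereas YKR005C and MRX20 hold neither TACTAAC nor ACTAAC in these letters. PTC7, PMI40 and YBR062C hold ACTAAC with another base before it. These matches describe letters in the intron and not use of a site.

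Per kb of exon, the level of the 68 genes at 0 h had a median of 987 scaled counts and ran from 153 to 5064. The median was 855 over all 4789 genes, 28197 over the 87 RP genes with an intron, and 2855 over the 47 other genes with a longer intron. HNT1, an adenosine monophosphoramidase with a histidine triad, was the highest at 5064 ± 989 per kb (SD, n = 24). RIM1, which binds single-stranded mitochondrial DNA, stood at 4489 ± 830.04 and the uncharacterised YPR063C at 4299.7 ± 1157. The neighbours in this order overlapped within their SD. YKR005C (153 ± 47), TFC3 (296 ± 85.1) and ATG38 (328 ± 95.6) were the lowest per kb. The minimum count that chose the genes bears on this order.

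The comparison of each later time with 0 h asks which of these genes moved as the cultures grew. At 6 h, 11 of the 68 genes were higher (16.2%) and 16 lower (23.5%), against 24.9% higher and 19.6% lower of all 4789 genes, by edgeR's quasi-likelihood test at an adjusted p under 0.05. At 4 h, 4 genes were higher (5.88%) and 12 lower (17.6%), against 17.7% and 17.4% of all genes. At 2 h, 0 passed in either direction with edgeR or DESeq2, 2 had an unadjusted p under 0.05, and 0.0418% of all genes were called higher and 0.0418% lower. The median log2 change of the 68 genes was −0.09 at 2 h, −0.10 at 4 h and −0.04 at 6 h, beside −0.01, 0.00 and 0.02 over all genes and −0.24, −0.41 and −0.36 over the RP genes with an intron. The shares of the 68 genes called lower were near those of all genes at both times, and the shares called higher were below them. Of the 68 genes, 3 were higher at both 4 and 6 h (ATG38, TFC3 and TMH18), 5 lower at both (HPC2, KIN28, PBA1, SPT14 and TMA20), and 33 passed at neither. The genes are described by role in groups of 13 or fewer that were formed by hand, and no group was tested. In RNA of a whole culture, fewer cells that use a gene and less RNA per cell cannot be told apart.

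These counts depend on the scaling and on the libraries at 0 h. With library totals in place of TMM the median of all genes moved to 0.10 at 4 h and 0.11 at 6 h, and the 68 genes split into 13 higher (19.1%) and 9 lower (13.2%) at 6 h, against 29.5% and 13.9% of all genes, and 5 higher (7.35%) and 6 lower (8.82%) at 4 h, against 21.1% and 11.3%. The calls lost with library totals were those of HPC2, KIN28, PBA1, RCF3, SPT14 and YBR062C at 4 h and APS3, ARP9, BIG1, GIM4, GPI15, HPC2, IST1 and KIN28 at 6 h, all among the lower genes. With the length-slope set as a term, 14 were higher and 25 lower at 6 h, against 32.7% and 30.3% of all genes, and 8 were higher and 12 lower at 4 h, against 20.7% and 19.0%. All 27 genes called at 6 h remained called with this term, and AIM11, DID4 and MCM21 became called higher and GIM5, HNT1, PCC1, RIM1, TAF14, TDA5, YBR062C, YNL050C and YPR063C lower. At 4 h the term added OM14, PMI40, RFA2 and YML6 among the higher and BET4 and TAN1 among the lower genes, and it lost KIN28 and YBR062C. Statements on a single gene that it did not pass, or passed at 1 time alone, refer to the fit without this term.

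With the culture number of the submitters as a replicate block and the 6 matching libraries at 0 h, the calls at 4 h were 2 higher (ATG38 and TFC3) and 1 lower (PBA1), against 6.18% and 3.9% of all genes. Those at 6 h were 9 higher and 7 lower, against 18.5% and 14.5%. Under this block at 4 h the log2 changes of the other named calls were 0.33 for TMH18 and 0.54 for RRT8 among the higher genes and −0.73 for PCC1, −0.50 for GIM5, −0.42 for YNL050C, −0.31 for TMA20 and −0.28 for YBR062C among the lower ones, with edgeR adjusted p of 0.088 to 0.37. HPC2, KIN28, RCF3, SPT14, TAD3 and TAF14 also lost their 4 h call. At 6 h the block lost MOB1 and RAD14 among the higher genes and APS3, ARP9, BIG1, GIM4, IST1, KIN28, POP8, TAN1 and TMA20 among the lower ones, with edgeR adjusted p of 0.0704 to 0.416. These libraries leave out the 18 at 0 h that carry another treatment in the alignment name. Without the block they gave 2 higher and 1 lower at 4 h, against 3.65% and 1.84% of all genes, and 7 and 7 at 6 h, against 14.8% and 11.5%. They lost the same calls as the block at both times, and at 6 h also those of CNB1 and YKR005C.

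**Figure D1:**
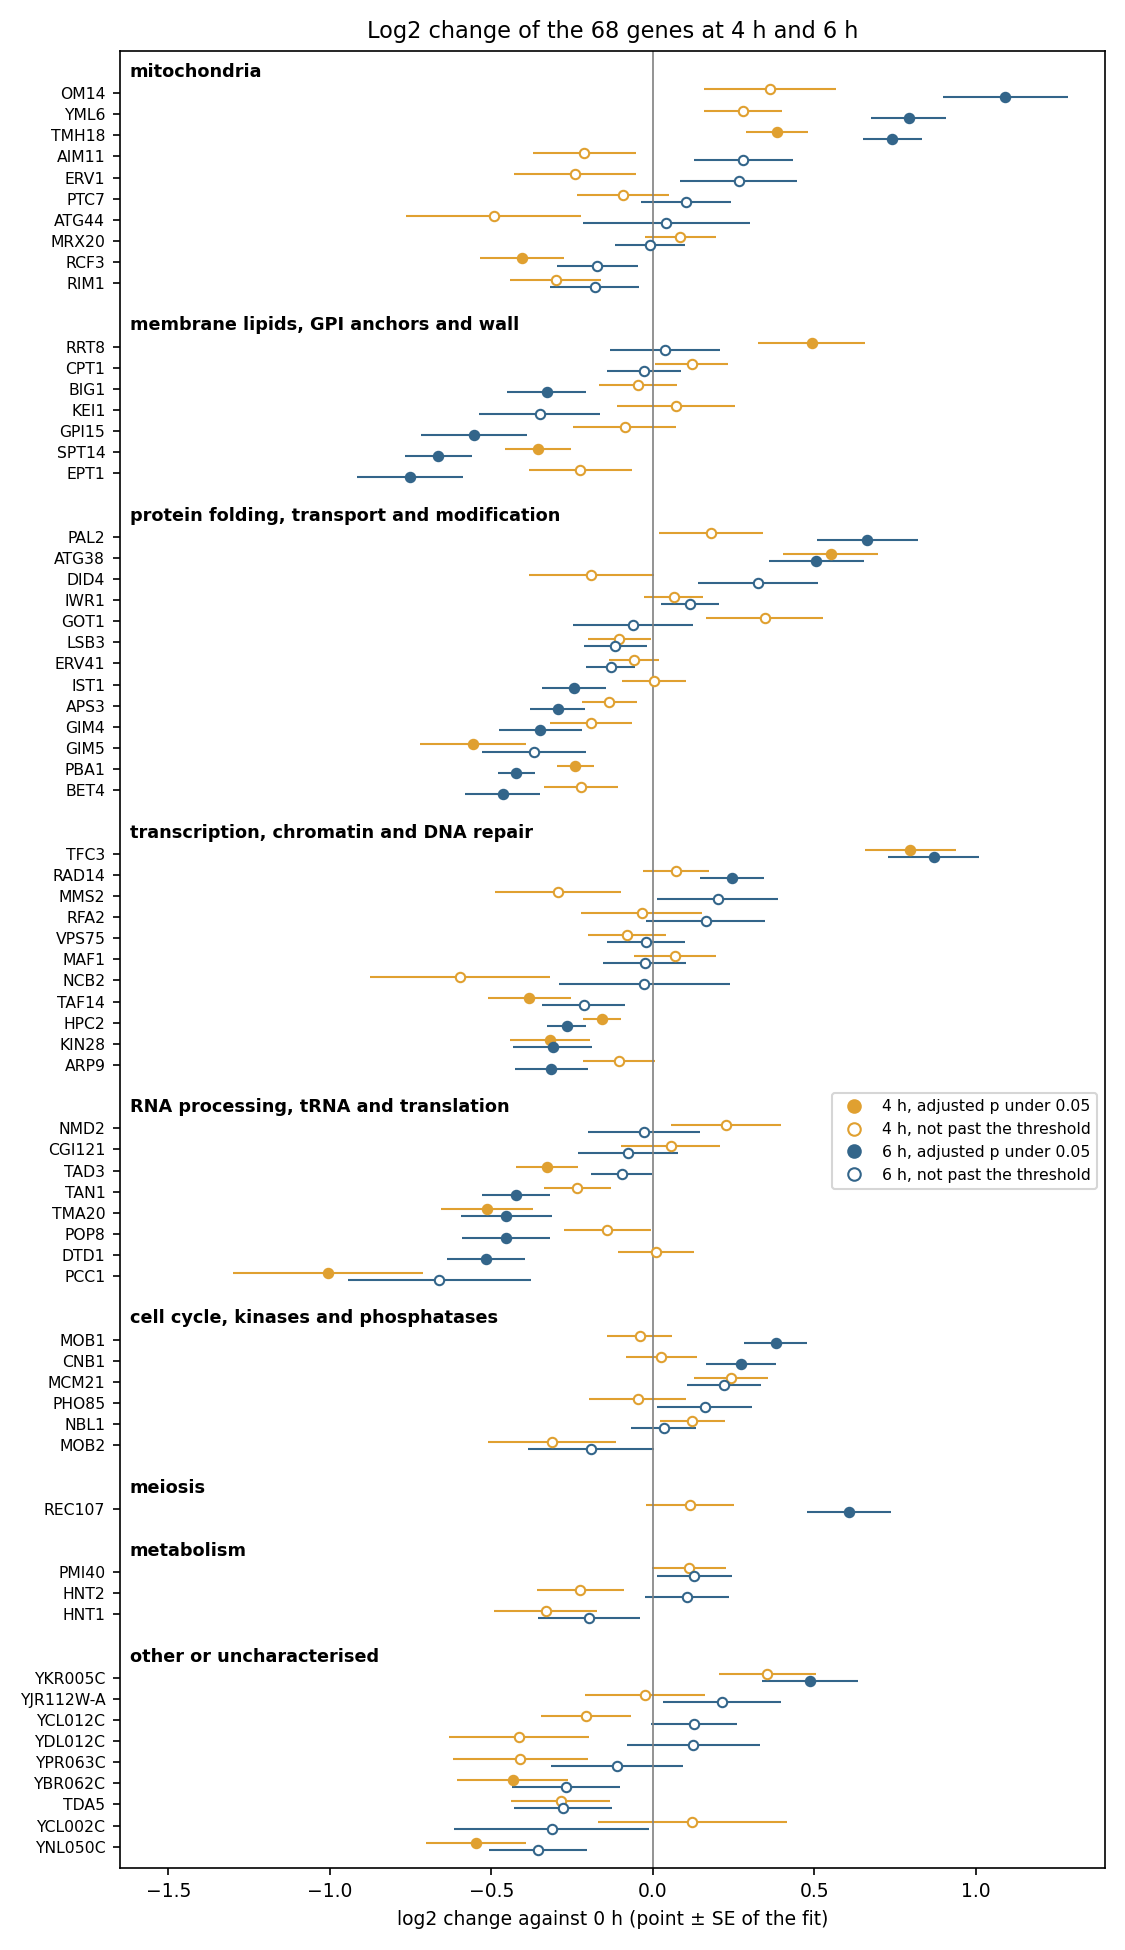
Log2 change against 0 h (x axis, no unit) of the 68 genes, grouped by role, at 4 h (orange) and 6 h (blue), as the fitted value with its SE. Filled points passed an edgeR adjusted p under 0.05, 16 at 4 h and 27 at 6 h, and the largest values are those of OM14 at 6 h (1.09) and PCC1 at 4 h (−1.01).

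Of 10 genes with roles in mitochondria, 3 rose at 6 h and 0 fell, where 24.9% of all genes rose and 19.6% fell, and their median log2 change was 0.18. OM14, an abundant protein of the outer mitochondrial membrane, had 282 to 831 (median 560.3) scaled counts at 0 h, 412 to 1106 (median 789) at 4 h and 583 to 1802 (median 1370.2) at 6 h. At 6 h, 4 of 6 libraries lay above every library at 0 h and the groups overlapped in the other 2. It had a log2 change of 1.09 (SE 0.19, edgeR adjusted p = 1.24e-05), the largest of the 68 genes at that time. YML6, a protein of the large subunit of the mitochondrial ribosome, stood at 596 to 1380.4 (median 836) at 0 h and 1312 to 1745 (median 1522) at 6 h. Of its libraries at 6 h, 5 of 6 were above every one at 0 h, with a log2 change of 0.79 (SE 0.12, edgeR adjusted p = 4.53e-07). TMH18, a mitochondrial membrane protein, ranged over 277 to 466 (median 396) at 0 h, 469.9 to 713 (median 522) at 4 h and 524 to 935 (median 641) at 6 h. It was the one gene of these 3 whose later libraries did not overlap those at 0 h at either time, with a log2 change of 0.39 (SE 0.09, edgeR adjusted p = 0.00206) at 4 h and a log2 change of 0.74 (SE 0.09, edgeR adjusted p = 1.37e-08) at 6 h. All 3 genes remained called at 6 h under every alternative run and without each library in turn.

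RCF3, a factor associated with respiratory supercomplexes, was lower at 4 h alone, with a log2 change of −0.41 (SE 0.13, edgeR adjusted p = 0.0142). The other 6 did not pass at either time. At 6 h their log2 changes were AIM11 (0.28), ERV1 (0.27), PTC7 (0.10), ATG44 (0.04), MRX20 (−0.01) and RIM1 (−0.18). ERV1 is the sulfhydryl oxidase of the intermembrane space, PTC7 a type 2C phosphatase of mitochondria, ATG44 the mitofissin that cuts mitochondria for their turnover, and MRX20 a carrier. ATG44 overlaps YIL156W-A on the same strand, and reads shared by both genes were not counted.

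Of 7 genes of membrane lipids, GPI anchors and the cell wall, 4 fell at 6 h and 0 rose (19.6% and 24.9% of all genes), with a median log2 change of −0.35. EPT1, the phosphotransferase that makes phosphatidylethanolamine from diacylglycerol, had 341.4 to 1048 (median 856) scaled counts at 0 h and 140.9 to 665 (median 579) at 6 h. The groups overlapped, since 1 of 6 libraries at 6 h was below every library at 0 h, and all 6 were below the 0 h median. It had a log2 change of −0.75 (SE 0.16, edgeR adjusted p = 0.000254). In the steep libraries alone the level was 696 to 1048 at 0 h and 559 to 665 at 6 h, and these did not overlap.

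SPT14 and GPI15 encode subunits of the same enzyme, the GlcNAc transferase of the first step of GPI anchor synthesis, and both fell. SPT14 stood at 742 to 1718 (median 1347) at 0 h, 894 to 1236 (median 1060.4) at 4 h and 583 to 1042 (median 854) at 6 h, with a log2 change of −0.66 (SE 0.11, edgeR adjusted p = 1.8e-06) at 6 h and a log2 change of −0.35 (SE 0.10, edgeR adjusted p = 0.00753) at 4 h. All its libraries at 6 h were below the 0 h median, with overlap. GPI15 ranged over 321.4 to 1122 (median 779.6) at 0 h and 359 to 678 (median 569) at 6 h, with a log2 change of −0.55 (SE 0.16, edgeR adjusted p = 0.00561), and with library totals the adjusted p was 0.0504. BIG1, needed for cell wall glucan, had a log2 change of −0.33 (SE 0.12, edgeR adjusted p = 0.0261), which was lost without 6 h replicate 2 or 5 (−0.19 at the smallest), with library totals, in steep libraries alone, and with the matching libraries at 0 h with or without the block by culture. KEI1 of inositolphosphorylceramide synthase (−0.35) and CPT1, the choline counterpart of EPT1 (−0.03), did not pass at 6 h. RRT8, a lipid particle protein, was higher at 4 h alone, with 218 to 662 (median 351) at 0 h and 356 to 802 (median 460.4) at 4 h, in overlapping groups. It had a log2 change of 0.49 (SE 0.16, edgeR adjusted p = 0.019) at 4 h, which was lost without 4 h replicate 1 or 4, with values down to 0.35.

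**Figure D2:**
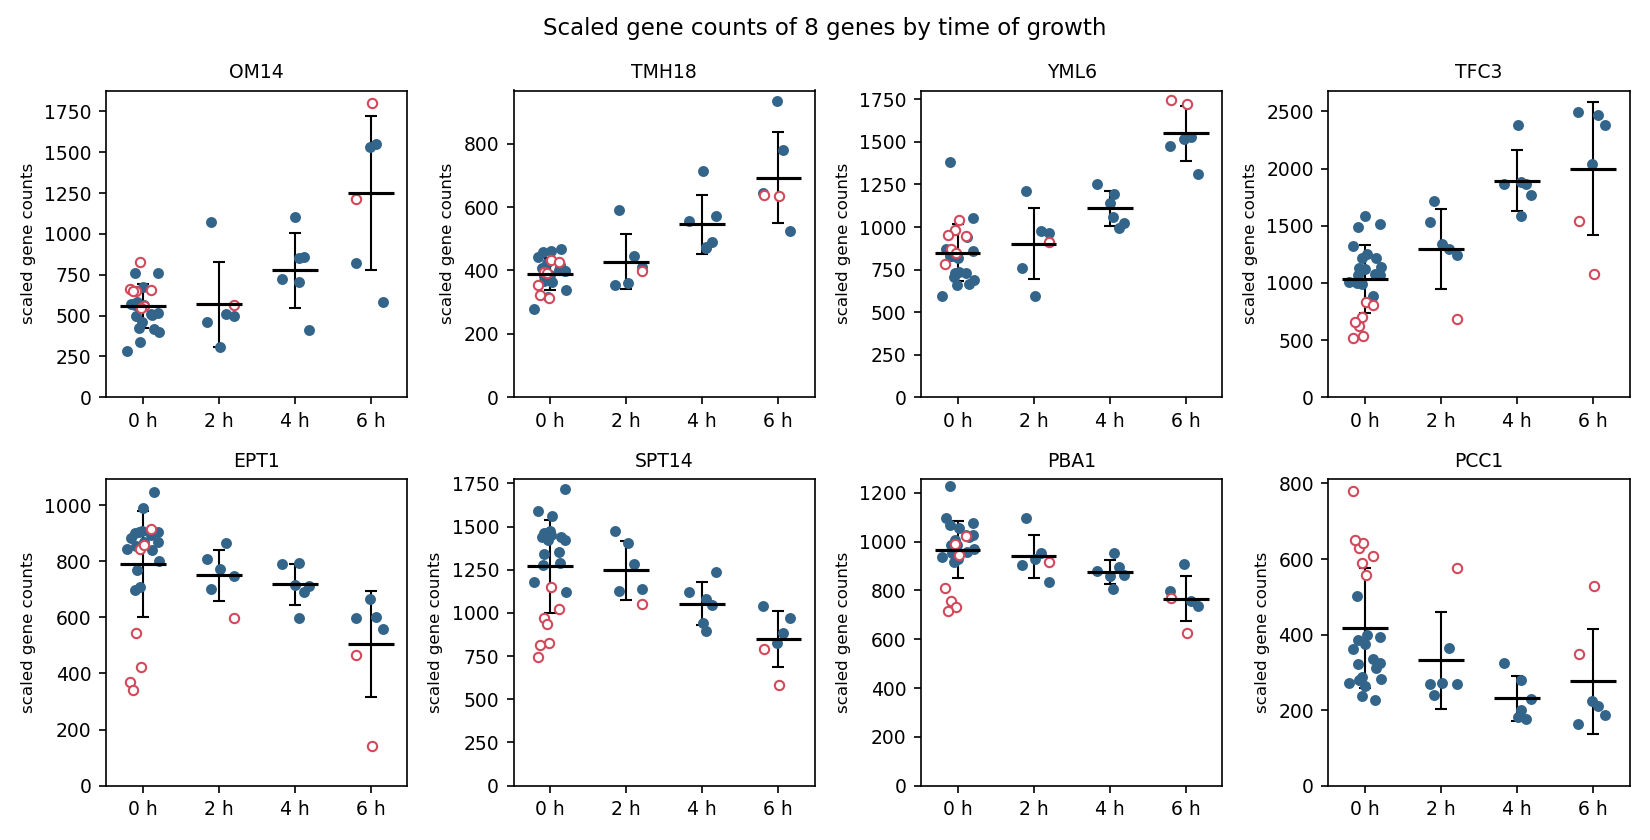
Scaled gene counts (y axis, counts per average library) at 0, 2, 4 and 6 h for 8 genes, with 1 point per library, blue for the steep and open red for the flat length slope, and the mean with its SD as bar and whisker. OM14, TMH18, YML6 and TFC3 stand higher at 6 h (medians 1370.2, 641, 1522 and 2209), EPT1, SPT14 and PBA1 lower, and in PCC1 the flat libraries at 0 h (557 to 779.7) stand above the steep ones (227 to 503).

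Of 13 genes of protein folding, transport and modification, 2 rose and 5 fell at 6 h, beside 24.9% and 19.6% of all genes. PBA1, a chaperone of proteasome assembly, had 716 to 1226 (median 984) scaled counts at 0 h, 807 to 955 (median 869.8) at 4 h and 626 to 909.8 (median 762) at 6 h. All 6 libraries at 6 h were below the 0 h median, 1 of them below every library at 0 h. The fall was a log2 change of −0.24 (SE 0.06, edgeR adjusted p = 0.00135) at 4 h and a log2 change of −0.42 (SE 0.06, edgeR adjusted p = 7.94e-08) at 6 h, and it kept its call at 6 h under every alternative run. BET4, a subunit of the enzyme that attaches geranylgeranyl to Rab proteins, ranged over 487 to 1191 (median 916) at 0 h and 380.1 to 832 (median 761) at 6 h, with a log2 change of −0.46 (SE 0.12, edgeR adjusted p = 0.00117). Its groups overlapped, as did those of APS3, the small subunit of the AP-3 coat (−0.29, SE 0.08), and IST1, which regulates ESCRT-III (−0.24, SE 0.10), both also lower at 6 h. The calls of APS3 and IST1 were among those lost with library totals and with the block by culture. BET4 and IST1 overlap a gene on the other strand, and the counting used strand.

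GIM4 and GIM5 encode 2 subunits of prefoldin, which hands nascent actin and tubulin to the chaperonin. GIM4 passed at 6 h alone, with a log2 change of −0.35 (SE 0.13, edgeR adjusted p = 0.0256), and lost the call without 6 h replicate 1, 3, 4 or 5, with library totals and with the matching libraries with or without the block by culture (−0.13 at the smallest over the alternatives). GIM5 passed at 4 h alone, with a log2 change of −0.56 (SE 0.16, edgeR adjusted p = 0.00883), where 3 of 6 libraries were below every library at 0 h, and its change was −0.31 with the set as a term. At 6 h its log2 change of −0.37 did not pass in the fit without that term. The time by gene difference between both subunits was not tested.

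PAL2, an endocytosis protein, rose at 6 h, with 461.02 to 937 (median 741) scaled counts at 0 h and 685 to 1722 (median 1199) at 6 h. Of 6 libraries, 5 were above every library at 0 h, with a log2 change of 0.66 (SE 0.16, edgeR adjusted p = 0.000593). ATG38, part of the autophagy phosphatidylinositol 3-kinase complex, had 88.4 to 352 (median 227) at 0 h, 293 to 434 (median 318) at 4 h and 201.1 to 418 (median 359.5) at 6 h. It was one of the genes already higher at 4 h, with a log2 change of 0.55 (SE 0.15, edgeR adjusted p = 0.00412), and a log2 change of 0.51 (SE 0.15, edgeR adjusted p = 0.00447) at 6 h, in groups that overlapped. DID4 of ESCRT-III (0.32), IWR1, which imports RNA polymerase II (0.12), GOT1 of the Golgi (−0.06), LSB3, which binds actin (−0.12), and ERV41 of COPII vesicles (−0.13) did not pass at either time.

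Of 11 genes of transcription, chromatin and DNA repair, 2 rose and 3 fell at 6 h, against all-gene shares of 24.9% and 19.6%. TFC3 is the largest subunit of TFIIIC, the factor that binds the internal promoters of tRNA genes. It had 516 to 1583 (median 1067) scaled counts at 0 h, 1582 to 2384 (median 1869) at 4 h and 1074 to 2497 (median 2209) at 6 h. At 4 h 5 of 6 libraries and at 6 h 4 of 6 were above every library at 0 h, with a log2 change of 0.80 (SE 0.14, edgeR adjusted p = 5.06e-05) and a log2 change of 0.87 (SE 0.14, edgeR adjusted p = 2.54e-06) at 6 h. MAF1, which represses RNA polymerase III, had log2 changes of 0.07 at 4 h and −0.02 at 6 h and passed at neither. RAD14, a damage recognition factor of nucleotide excision repair, had a log2 change of 0.25 (SE 0.10, edgeR adjusted p = 0.0405) at 6 h and lost it without 6 h replicate 2, 4 or 5 or 0 h replicate 3, 7, 10 or 23 (log2 change down to 0.14), and with 8 of the 12 other settings, the block by culture among them.

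The genes that fell here were KIN28, the TFIIH kinase of the RNA polymerase II tail (−0.32 at 4 h and −0.31 at 6 h), HPC2 of the HIR nucleosome assembly complex (−0.16 and −0.27), and ARP9, an actin-related subunit of the RSC and SWI/SNF remodellers (−0.31 at 6 h). ARP9 lost its call without 6 h replicate 2 or 4, with values of −0.37 to −0.23 over the libraries left out, and with library totals and the matching libraries with or without the block by culture. The 4 h call of KIN28 was lost with the set as a term (−0.16, edgeR adjusted p = 0.0809), and its 6 h call with library totals and the block by culture. TAF14, shared by TFIID, TFIIF and other complexes, was lower at 4 h alone (−0.38, SE 0.13). At 6 h, NCB2, the NC2 repressor subunit (−0.03), VPS75, a histone chaperone (−0.02), RFA2 of replication protein A (0.16), and MMS2 of DNA damage tolerance (0.20) did not pass, nor at 4 h.

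Of 8 genes of RNA processing, tRNA and translation, 4 fell and 0 rose at 6 h, where 19.6% of all genes fell and 24.9% rose, with a median of −0.44. DTD1, which removes D-amino acids from tRNA, had 236 to 588 (median 394) scaled counts at 0 h and 188 to 342 (median 323) at 6 h. TMA20, a ribosome-associated factor, stood at 1149 to 2499 (median 1467) at 0 h, 998 to 1259 (median 1196) at 4 h and 859.9 to 1574 (median 1173) at 6 h. Groups overlapped for both, with all 6 libraries of DTD1 at 6 h below its 0 h median and 3 of 6 of TMA20 below every library at 0 h. The changes at 6 h were −0.52 for DTD1 (SE 0.12, edgeR adjusted p = 0.000605) and −0.45 for TMA20 (SE 0.14, edgeR adjusted p = 0.00815), and TMA20 had a log2 change of −0.51 (SE 0.14, edgeR adjusted p = 0.00551) at 4 h.

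POP8, a subunit of RNase P and RNase MRP (−0.45, SE 0.14), and TAN1, needed to acetylate tRNA (−0.42, SE 0.10), were the other 2 that fell at 6 h. With the 6 matching libraries at 0 h, the 6 h calls of TMA20 (edgeR adjusted p = 0.241), POP8 (0.139) and TAN1 (0.103) were lost, as they were with the block by culture. TAD3, a subunit of the tRNA adenosine deaminase, was lower at 4 h alone (−0.33, SE 0.10). PCC1 and CGI121 belong to KEOPS, the complex that modifies tRNA that reads ANN codons. PCC1 had the largest fall of the 68 genes at 4 h. It stood at 227 to 779.7 (median 369) at 0 h and 176 to 325 (median 215) at 4 h, with a log2 change of −1.01 (SE 0.30, edgeR adjusted p = 0.00819).

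At 0 h PCC1 split by the length-slope set, with 557 to 779.7 in the 7 flat and 227 to 503 in the 17 steep libraries, and the 6 libraries at 4 h were all steep. With the set as a term its log2 change was −0.54 at 4 h and −0.76 at 6 h, called at both times. Without the term, 6 h gave −0.66 (edgeR adjusted p = 0.0549) and was not called. CGI121 (−0.08) and NMD2, the Upf2 factor of nonsense-mediated decay (−0.03), did not pass at 6 h.

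Of 6 genes of the cell cycle, kinases and phosphatases, 2 rose at 6 h and 0 fell, against 24.9% and 19.6% of all genes. MOB1, an activator of the mitotic exit kinase Dbf2, stood at 1003 to 1322 (median 1127) scaled counts at 0 h and 1218 to 2408 (median 1383) at 6 h. Its top value, in 6 h replicate 2, lay far from the rest, and without that library the log2 change of 0.38 (SE 0.10, edgeR adjusted p = 0.00147) was 0.13 and not called, nor was it called with either block. CNB1, the regulatory subunit of calcineurin, ranged over 760.4 to 1328 (median 1092) at 0 h and 1133 to 1715 (median 1347) at 6 h, with a log2 change of 0.27 (SE 0.11, edgeR adjusted p = 0.037). That call was lost without 6 h replicate 2, 3 or 4 or 0 h replicate 23, with values down to 0.15, and with 5 of the 12 other settings, the matching libraries at 0 h among them. PHO85, a cyclin-dependent kinase (0.16), MCM21 of the kinetochore (0.22), NBL1 of the chromosomal passenger complex (0.03) and MOB2, an activator of the Cbk1 kinase (−0.19), did not pass.

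REC107, also called MER2 and required for the double-strand breaks of meiosis, was the 1 meiotic gene that reached the minimum count. It stood at 355 to 634 (median 503) scaled counts at 0 h and 508 to 1081 (median 792) at 6 h, where 5 of 6 libraries were above every library at 0 h, with a log2 change of 0.61 (SE 0.13, edgeR adjusted p = 0.000191). The rise was called under every alternative run. The metabolic genes PMI40, a phosphomannose isomerase (0.13), HNT2, a diadenosine polyphosphate hydrolase (0.10), and HNT1 (−0.20) did not pass at 6 h.

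Of 9 other or uncharacterised genes, YKR005C alone rose at 6 h and 0 fell, against 24.9% and 19.6% of all genes. It had 111 to 481.1 (median 235) scaled counts at 0 h and 265 to 527 (median 314) at 6 h, with a log2 change of 0.49 (SE 0.15, edgeR adjusted p = 0.0069). Its groups overlapped, and without 6 h replicate 3 the adjusted p was 0.0526 in edgeR, and with the 6 matching libraries at 0 h 0.199. YNL050C (−0.55, SE 0.15) and YBR062C (−0.43, SE 0.17) were lower at 4 h. Of YNL050C, 4 of 6 libraries at 4 h were below every library at 0 h, whereas the call of YBR062C was lost with the set as a term (−0.26, edgeR adjusted p = 0.113) and without any 1 of 12 libraries, 8 at 0 h and 4 at 4 h. The log2 changes at 6 h of the rest, none called at either time in the fit without the set term, were YJR112W-A (0.21), YCL012C (0.13), YDL012C (0.13), YPR063C (−0.11), TDA5 (−0.28) and YCL002C (−0.31).

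Splicing was read from intron reads, which are the counts over a gene that its exons do not account for, and from the splice ratio, 1 minus intron reads per base over exon reads per base. A read that touches an exon base was counted to the exon, so an intron read lies wholly within the intron, and a short intron leaves little room for one. At 0 h, the 89 genes within the short limits gave a median of 3.5 intron reads a library, against 20 in 37 genes with a longer intron under 300 bp, 224.5 in 75 genes from 300 bp to under 500 bp and 365 in 22 genes of 500 bp and over. As a percentage of gene reads the medians rose with length, 0.552%, 1.59%, 2.54% and 5.29%. Per base relative to the exon they were 0.0383, 0.0326, 0.0248 and 0.0336, with no such order. This is a description over genes, and read length, which is not given in the sources used here, was not part of it.

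Among the 68 genes the intron to exon ratio per base, over all reads at 0 h, had a median of 0.0416. It was highest for YKR005C (0.261), REC107 (0.254), MRX20 (0.204) and PTC7 (0.169), and 0.125 for TFC3 and 0.125 for YBR062C. At the other end stood YJR112W-A with 0 intron reads of 10838 gene reads at 0 h, which allows a share of up to 0.0277% by 3 counts and for counting error only, then RIM1 (0.00331), DID4 (0.00381) and PMI40 (0.00871). The intron of YJR112W-A, at 49 bp, leaves the least room for a whole read, so its value is not read as a level of splicing. The 54 genes whose intron opens with GTATGT had a median of 0.0348 and the 13 with another start 0.0624. The 47 with TACTAAC had 0.0386 and the 20 without 0.0542. Both pairs of distributions overlapped, as YKR005C opens with GTATGT and REC107 holds TACTAAC.

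**Figure D3:**
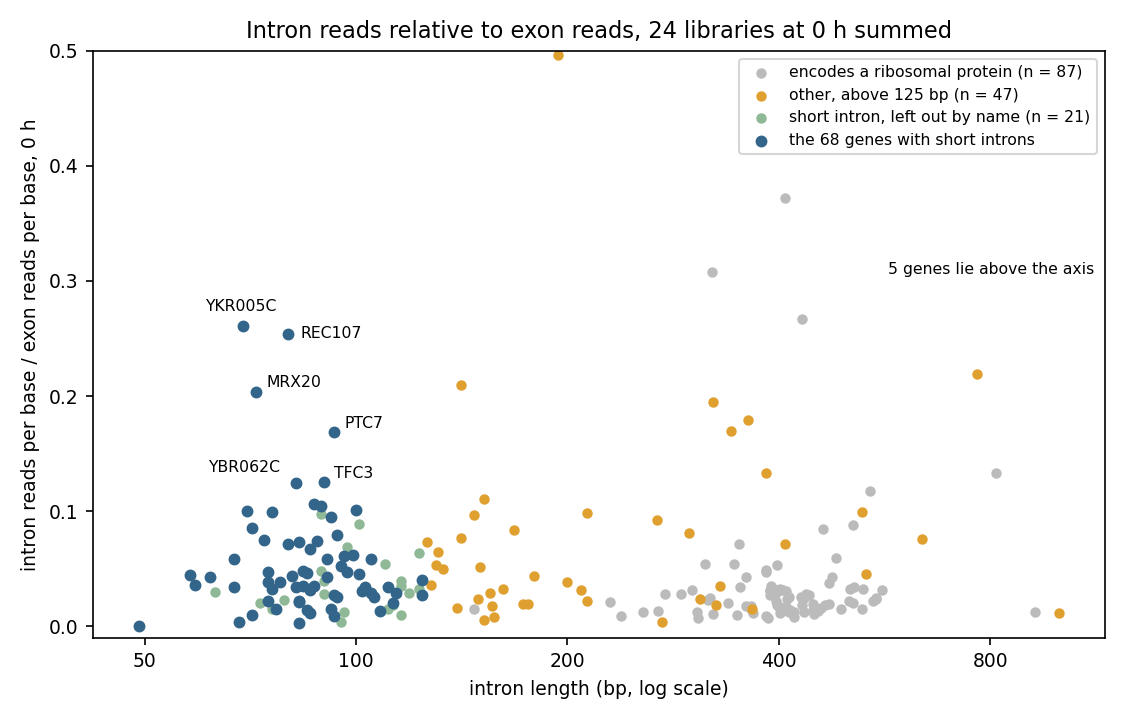
Intron reads per base over exon reads per base (y axis, ratio) against intron length (x axis, bp, log scale), with 1 point per gene from the 24 libraries at 0 h summed. The 68 genes (blue), RP genes (grey) and other genes with longer introns (orange) all lie mostly under 0.1. A short intron leaves less room for a whole read, so levels at unlike lengths are not compared. YKR005C and REC107 stand highest among the 68 at 0.261 and 0.254. Of the grey and orange genes, 5 (RPS9A, GCR1, YBR090C, YHL050C and HAC1) lie above the y axis limit and are not seen.

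By library, the splice ratio at 0 h was lowest for YKR005C, 0.225 to 1.000 (median 0.785), and REC107, 0.546 to 0.949 (median 0.712). MRX20 had a mean of 0.795, PTC7 0.820 and YBR062C 0.853, and the median gene of the 68 had 0.9536. PTC7 is the gene whose unspliced transcript is known to encode a protein of the nuclear envelope. Its median splice ratio was 0.830 at 0 h and 0.761, 0.849 and 0.824 at the later times in order, in ranges that overlapped. REC107 spread from 0.365 to 0.873 at 6 h, the widest of the printed genes. At 0 h its mean was 0.808 in the 7 flat and 0.690 in the 17 steep libraries. None of these 5 genes passed the exact permutation test at any time.

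At 6 h, 1 of the 68 genes had a lower splice ratio and 0 a higher one by a two-sided exact permutation test. The adjustment ran over 223 intron genes, of which 4.04% were called lower (9 genes, 7 of them RP genes) and 0.448% higher. At 4 h, 0 were called in either direction, against 0.448% of the 223 genes called lower, and at 2 h 0. With no adjustment, 49, 56 and 50 of the 223 intron genes were lower at 2, 4 and 6 h at p under 0.05. Of these, 38, 42 and 42 were RP genes, and 2, 4 and 3 were among the 47 other genes with a longer intron. Of the 68 genes, 6, 8 and 4 were lower at these times, and 0 higher. Single libraries moved these counts, from 1 (without 2 h replicate 4) to 19 (without replicate 1) at 2 h, from 4 (without replicate 3) to 13 (without replicate 5) at 4 h, and from 1 (without replicate 3) to 7 (without replicate 2) at 6 h. The median splice ratio over the 68 genes was 0.9536 at 0 h and 0.9361, 0.9457 and 0.9534 at 2, 4 and 6 h. Over the RP genes it was 0.9696, 0.9541, 0.9532 and 0.9516. The ratio divides by the whole intron length, and a short intron has fewer places for a whole read. The levels of lists with unlike intron length are therefore not compared, only their course over time.

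The called gene was CNB1. Its splice ratio was 0.931 to 1 at 0 h (median 0.965), then 0.913 to 0.992 (2 h), 0.842 to 0.959 (4 h) and 0.874 to 0.987 (6 h, median 0.910). Of 6 libraries at 6 h, 5 were below every library at 0 h, and the exception, replicate 2, is of the flat set. The mean fell from 0.9648 ± 0.0177 (SD, n = 24) to 0.9165 ± 0.0387 (SD, n = 6), a difference of −0.0483 (exact permutation p = 0.000249, adjusted p = 0.0139). The median intron read number was 5 at 0 h and 20.5 at 6 h. These are raw reads per library, scaled neither for depth nor for the level of CNB1, so they do not measure the size of the change. The call was lost without 6 h replicate 1, 3 or 5 (exact permutation adjusted p of 0.0578, 0.0507 and 0.0709) and on the log2 scale of the ratio (adjusted p = 0.303). Replicate blocks leave 64 splits (smallest p 0.0312) and the matching libraries 924 (smallest p 0.00108), and the adjusted p from so few splits is not read. Over the settings on the scale of the ratio the change of CNB1 was −0.0608 to −0.0461. When splits were restricted to each length-slope set, the exact permutation adjusted p was 0.00279, and HNT1, IWR1, ERV1 and ARP9 were then also called lower at 6 h. Within the sets, 29.6% of the 223 intron genes were called lower, 66 genes of which 57 encode RPs, and 1.79% higher.

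HNT1 shows this dependence in one gene. Its splice ratio was 0.916 to 0.989 at 0 h and 0.878 to 0.987 at 6 h. Groups overlapped, and the change within the sets was −0.0298 (exact permutation adjusted p = 0.0116). IWR1 ranged over 0.743 to 0.970 at 0 h and 0.675 to 0.906 at 6 h, also with overlap. The genes with most intron reads at 0 h, medians of 30.0 (NCB2), 16 (HNT1), 15 (TAF14) and 12 (YDL012C and YBR062C) per library, gave changes at 6 h of −0.0307 for NCB2, −0.0133 for TAF14, 0.00338 for YDL012C and 0.0119 for YBR062C, none of them called under any alternative run.

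**Figure D4:**
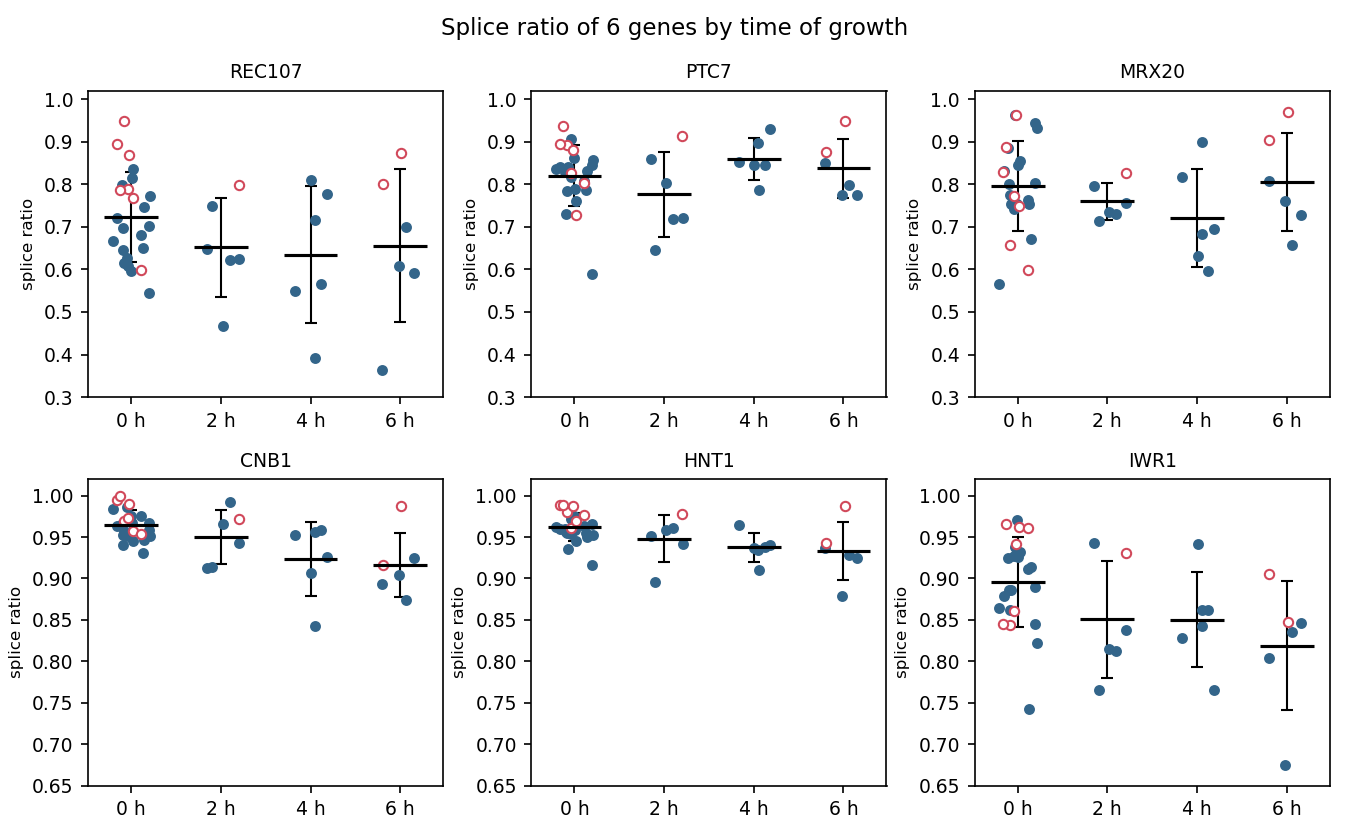
Splice ratio (y axis, 1 for no intron read) at 0, 2, 4 and 6 h for 6 genes, with 1 point per library, blue for the steep and open red for the flat length slope, and the mean with its SD as bar and whisker. The top row starts at 0.3 and the bottom row at 0.65. Ratios of REC107, PTC7 and MRX20 spread widely at each time, and CNB1 falls from a mean of 0.9648 at 0 h to 0.9165 at 6 h.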

How the data were processed

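RNA-seq libraries were stranded and polyA selected. The authors counted reads with featureCounts 2.0.3 on Ensembl release 106 of R64-1-1, over genes and over exons, leaving out reads that map to several places or genes, and deposited raw counts with no normalization. The methods name a ComBat-seq adjustment, which the count headers do not show. Each sample was grouped by its labelled time. The difference between gene and exon length that chose the genes was 25 to 125 bp. All 42 libraries entered 1 edgeR 4.0.16 quasi-likelihood fit (R 4.3.3, TMM) over 4789 genes with at least 75 counts in every library, with Benjamini-Hochberg adjustment and a threshold of 0.05. On simulated counts this fit was tested before use. Splice ratios of 24 and 6 libraries were compared by an exact permutation test over all 593775 splits (smallest p 1.68e-06), adjusted over 223 intron genes. Members and lists were chosen with earlier results of these data known. Named genes are those past the threshold, up to 12 per direction at 6 h and 5 at 4 h by size, plus the extremes of level and splicing. The labels call the libraries biological repeats. Culture numbers come from the submitters' own library names. Libraries that share one deviated together at 4 h in 6 of 6 pairs, with r of 0.16 to 0.577. They did so in 4 of 6 pairs at 2 h (r of −0.374 to 0.754 over all pairs) and in 5 of 6 at 6 h (−0.428 to 0.875). Libraries with the same number in the titles did so in 3, 2 and 2 of 6 pairs at 2, 4 and 6 h, with r from −0.746 to 0.743. Among 321 pairs of libraries of the same time, no pair was a duplicate (chi-square per degree of freedom of at least 9.5). Alternatives were library totals, DESeq2 1.42.0 and its size factors, other count filters, exon counts, the length-slope set, fewer libraries and replicate blocks. Figures were drawn with matplotlib 3.10.9.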

Additional observations from a re-analysis of the deposited data

Results flagged for a closer look

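In 62 groups of 6 libraries that were checked for a value far from the others, 5 had one by Dixon's criterion (gap to the nearest value over the range, above the 95% critical value), and chance alone gives about 1 in 20. MOB1 at 6 h had 2408 scaled counts in replicate 2 against 1218 to 1436 in the others (0.817). TAN1 at 6 h had 506 in the same replicate against 874 to 1077 (0.644). TFC3 at 4 h had 2384 in replicate 1 against 1582 to 1880 (0.629). For the splice ratio, TAF14 at 4 h had 0.7478 in replicate 3 against 0.874 to 0.910 (0.777), and YDL012C at 2 h had 0.7751 in replicate 4 against 0.892 to 0.932 (0.746). Replicate 2 at 6 h belongs to the flat length-slope set, whose part in these values was not tested.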

How the results depend on the processing

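Counts of called genes moved with the libraries used. At 4 h, 4 higher became 8 with the length-slope set as a term, 9 in steep libraries alone, 2 with the 6 matching libraries at 0 h, 0 with the replicate block by title number and 2 with the replicate block by culture number. The 12 lower became 6 with library totals, 1 with the matching libraries, 2 with the block by title and 1 with the block by culture. All genes called lower at 4 h went alike from 17.4% to 11.3%, 1.84%, 2.32% and 3.9%. Those called higher went from 17.7% to 20.7%, 23.3%, 3.65%, 3.24% and 6.18%, in the order of the settings above. At 6 h, 11 higher became 7 with the matching libraries and 7 with the block by title, and 16 lower became 9 with library totals, 25 with the set as a term, 7 with the matching libraries and 7 with the block by culture. Of all genes, the share called higher went from 24.9% to 14.8% and 15.6%. The share called lower went from 19.6% to 13.9%, 30.3%, 11.5% and 14.5%. At 2 h, 1 was lower in steep libraries alone, against 0.877% of all genes. Leaving out each library gave 3 to 6 higher and 7 to 14 lower at 4 h, with 7 without 4 h replicate 4, and 9 to 12 higher and 13 to 20 lower at 6 h. Lower splice ratios were 0 to 1 at 2 h (SPT14, without replicate 1) and 0 to 4 at 6 h, with 0 without replicate 1, 3 or 5, 4 without replicate 2 and 3 without replicate 4. The 1 at 6 h became 0 on the log2 scale, 5 within the sets, and 5 in steep libraries. With the matching libraries (924 splits) and the blocks (64 splits each) it was 0, 0 and 0, but so few splits say nothing on the call. The change of CNB1 was −0.0608 to −0.0461 over the settings on the scale of the ratio. With each 6 h library left out in turn it was −0.0624 to −0.0399. No called value of a named gene changed sign under these settings.

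At 6 h, 40 of the 68 changes of splice ratio, none of them called with all libraries, had the other sign in at least 1 setting or with 1 library left out. Values follow for 5 of them. MRX20 became −0.0633 in steep libraries, −0.0359 with the block by title and −0.0236 and −0.0106 without replicate 2 or 4 (up to 0.0386 without others). PTC7 became −0.00712 in steep libraries, −0.00953 with the matching libraries with or without the block by culture, and −0.00501 to 0.0299 with each library left out. YBR062C became −0.0220 on the log2 scale. TAF14 became 0.00895 with the matching libraries with or without the block, and 0.00304 without replicate 3 (down to −0.0272 without others). YDL012C became −0.00341 in steep libraries and −0.00327, −0.00141 and −0.00384 without replicate 2, 4 or 5 (up to 0.0190 without others). The cause was not tested. Median intron reads of the 68 genes were 30 or fewer per library at 0 h.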

Other observations

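Of the 29 short-intron genes below the minimum count, 13 had a mean of at least 75 counts over the libraries. CIN2, a cytoskeleton gene left out by name, is among these 13. This filter takes the mean over all times, so a gene low at 0 h can pass it through a later time where it is high. In a fit with that filter, 4 of the 13 were higher and 0 lower at 4 h, and 5 higher and 0 lower at 6 h (edgeR, adjusted over all 5404 genes of that fit, of which 18.4% were higher and 16.3% lower at 4 h, and 25.4% and 19.4% at 6 h). CMC4, a protein of the mitochondrial intermembrane space, had a log2 change of 1.75 at 6 h (mean 57.7 scaled counts at 0 h and 210.3 at 6 h), and YLR202C 0.95 (69.1 and 139.1). Both means lay under 75 at 0 h and above it at 6 h, so no direction is read from the counts of calls. CMC2, also of mitochondria, had 0.39. The meiotic genes REC102, SPO1 and SPO22 had 0.43, −0.26 and −0.20 and did not pass. A minimum in every library leaves out a gene that falls under it in a single library. CMC2, with a lowest count of 56, had mean scaled counts of 241.4 at 0 h and 341.3 at 6 h. Why each gene missed the minimum was not tested.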
